A study of Mus musculus with 2 samples.

Results

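Integrin subunit genes were described here in mouse bone marrow cells cultured with and without the osteoclast cytokine RANKL. The 10 genes (Itgb3, Itgav, Itgb5, Itgb1, Itgb2, Itga4, Itga6, Itgal, Itgam and Itgax) were chosen by name, and they are 10 of the 14870 genes to which a locus assembled from the reads was given in at least 1 library. They comprise 6 alpha and 4 beta subunit genes, and the remaining 16 of the 26 integrin subunit genes listed were used for comparison. All bone marrow cells were wild type (WT). The group M received macrophage colony-stimulating factor (M-CSF), which keeps monocyte and macrophage cells alive and dividing. By the labels the group MR received M-CSF for 2 days and M-CSF and RANKL for the next 2 days, so that M-CSF was common to both groups. The culture method of the study gives a longer time with RANKL, and which of these the MR library had is not known here. The day on which RNA was taken, and the strain, sex and age of the mice, are not in the labels. Total RNA was sequenced as 1 library per group, so that no difference below has a replicate check and no p-value was computed.

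An integrin is a receptor made of 1 alpha and 1 beta chain that spans the cell membrane and links matrix proteins or other cells to the actin cytoskeleton. The pair αvβ3, encoded by Itgav and Itgb3, is the vitronectin and osteopontin receptor of osteoclasts and takes part in the adhesion structures, podosomes and the sealing zone, with which these cells hold on to bone. The β2 chain, encoded by Itgb2, pairs on leukocytes with αL, αM or αX, while the β1 chain pairs with many alpha chains, α4 and α6 among them.

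Values are in TPM, an RNA level per transcript length scaled to the total of the library, summed over the loci given to a gene. The log2 ratio of MR to M was taken after 1 was added to each TPM, and a gene is called higher or lower in MR when this ratio is above 1 or below -1. Of 13449 genes tested, 21.3% were higher in MR and 13.2% were lower, 34.5% in all, and the median log2 ratio was 0.21. The aligned bases came to 3.63 Gb in M and 2.98 Gb in MR. Read counts are not listed, and the 95% counting intervals below come from read pairs estimated from FPKM and transcript length, and cover counting error only. The samples are bulk cultures, in which fewer cells of a type and less RNA per cell cannot be told apart.

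The cells were checked against markers. The 5 macrophage markers summed to 5251 TPM in M and 3267 in MR, and 3 of them, Adgre1, Mertk and Fcgr1, were lower in MR. Csf1r, with a log2 ratio of 0.32, and Cd68, with -0.26, were not called. All 6 osteoclast markers were higher in MR, with a sum of 109.2 TPM in M and 19626 in MR, and Dcstamp, Ocstamp and Oscar had no locus in M. The 4 T and NK cell markers had no locus in either library. Neutrophil markers were present in both, with 0 of 8 called. The B cell, dendritic cell, mast cell and basophil, erythroid and stromal lists each summed to at most 20.8 TPM in either library.

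The bases before the transcription start of member genes are shown because the assembled loci of the members began close to an annotated start, with the exceptions given below. RefSeq's promoter table on GRCm38.p6 held 6 of the 10 members and had no entry for Itgb3, Itgb2, Itga6 or Itgal. The 4 printed windows, each of 250 bases on the plus strand, belong to Itgav (chr2:83724147-83724396) and Itgb5 (chr16:33829415-33829664), which were called in opposite directions, and to Itgam (chr7:128062390-128062639) and Itgax (chr7:128129300-128129549), neighbours on chromosome 7 that were not called. Capitals mark matches, on either strand, to the letters searched for NFAT (GGAAAA), PU.1 (GAGGAA), AP-1 (TGANTCA), Sp1 (GGGCGG) and the TATA box (TATAAA).
Itgav: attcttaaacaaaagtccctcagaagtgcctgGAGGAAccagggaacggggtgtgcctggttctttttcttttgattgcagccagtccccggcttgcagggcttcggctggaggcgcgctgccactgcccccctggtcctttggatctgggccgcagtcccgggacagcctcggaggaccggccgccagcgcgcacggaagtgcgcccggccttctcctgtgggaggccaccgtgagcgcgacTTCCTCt
Itgb5: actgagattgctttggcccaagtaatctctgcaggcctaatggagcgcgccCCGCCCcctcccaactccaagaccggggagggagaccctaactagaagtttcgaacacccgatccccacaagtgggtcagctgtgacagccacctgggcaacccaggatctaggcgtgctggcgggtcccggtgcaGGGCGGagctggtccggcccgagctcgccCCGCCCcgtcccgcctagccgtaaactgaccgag
Itgam: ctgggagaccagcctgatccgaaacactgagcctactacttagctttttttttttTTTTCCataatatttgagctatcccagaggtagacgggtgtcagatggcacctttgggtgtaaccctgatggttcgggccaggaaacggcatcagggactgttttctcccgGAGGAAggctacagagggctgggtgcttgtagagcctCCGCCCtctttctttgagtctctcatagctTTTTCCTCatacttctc
Itgax: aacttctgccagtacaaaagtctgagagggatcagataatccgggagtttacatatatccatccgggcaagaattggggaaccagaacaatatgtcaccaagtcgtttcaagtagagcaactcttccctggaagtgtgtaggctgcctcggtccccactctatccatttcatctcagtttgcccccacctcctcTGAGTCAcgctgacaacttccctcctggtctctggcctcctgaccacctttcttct

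A match is a description of letters and not a bound site. The Itgav window held 2 PU.1 matches, the nearer one 7 to 2 bases before the start. The Itgb5 window held 3 Sp1 matches and none to the other 4 motifs. In Itgam there were 2 NFAT, 2 PU.1 and 1 Sp1 matches, and the NFAT match 17 to 12 bases before the start overlapped the PU.1 match 15 to 10 bases before it. The Itgax window held 1 AP-1 match, 56 to 50 bases before the start. The unprinted windows held PU.1 and Sp1 matches in Itgb1 and an Sp1 match in Itga4. Among all 32851 windows of this length, 20.4% held an NFAT match, 23.3% PU.1, 6.75% AP-1, 32.7% Sp1 and 12.4% the TATA letters. The G and C content was 64.4% in Itgav and 65.2% in Itgb5 against 49.6% in Itgam, with a median of 52.4% over all windows.

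All 10 members had a locus in both libraries and reached a TPM of 1. Of these, 2 were higher in MR (Itgb3 and Itgav), 3 were lower (Itgb5, Itga6 and Itgal) and 5 were within the threshold. The share called, 5 of 10, stands beside 34.5% over all genes tested, of which 21.3% were higher and 13.2% lower. The median log2 ratio of the members was -0.17, beside 0.21 over all genes tested. Of the members 4 of 10 were above 0, beside 8001 of the 13449 genes tested. The summed TPM of the members was 1198 in M and 1281 in MR.

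**Figure D1:**
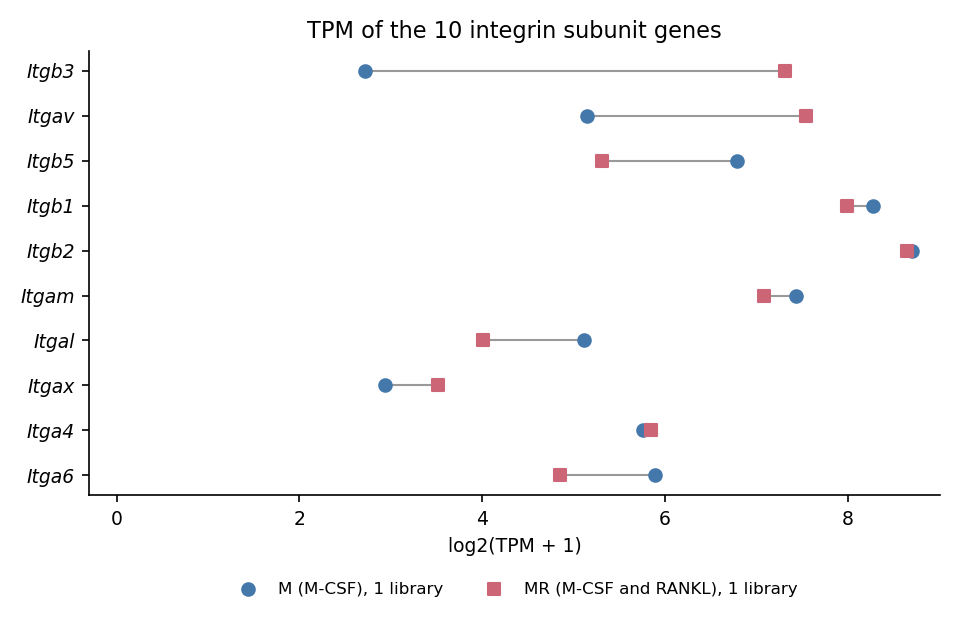
Level of each member gene as log2(TPM + 1) on the horizontal axis, with the M library as a circle and the MR library as a square, 1 library per group. The 2 symbols lie farthest apart for Itgb3, which went from 5.56 to 158 TPM, and nearest for Itgb2, at 416.2 and 401 TPM.

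In TPM summed over loci, Itgb3, Itgav and Itgb5, the genes of αvβ3 and αvβ5, had the largest differences among the 10 members. Itgb3 (chr11:104608000-104670476 in GENCODE vM21 on GRCm38, plus strand) encodes the β3 chain of the osteoclast vitronectin receptor and was at 5.56 TPM in M and 158 TPM in MR. The ratio was 28.3-fold (counting interval 24.4 to 32.9), and the log2 ratio was 4.60. An estimated 180 read pairs in M and 4030 in MR stand behind these values. Itgb3 had the largest log2 ratio of the 10 members.

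Itgav (chr2:83724397-83806916, plus strand) encodes αv, the partner of both β3 and β5. Its level was 34.5 TPM in M and 185 TPM in MR, higher in MR by 5.36-fold (5.06 to 5.69), with a log2 ratio of 2.39. Itgb5 (chr16:33829665-33949338, plus strand) encodes β5, another beta chain that pairs with αv. It was at 109.2 TPM in M and 38.6 TPM in MR, 2.83-fold lower in MR (2.58 to 3.11), with a log2 ratio of -1.48. Thus the beta chain genes of αvβ3 and αvβ5 went in opposite directions.

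The coverage listed for Itgb5 in MR, the read depth per base, was 13.8, whereas its FPKM in that library corresponds to a coverage of 51.1. In M these were 181.3 and 183.5. From the listed coverage per aligned Gb the log2 ratio of Itgb5 was -3.18, so that the direction was the same and the size of the difference depends on the column. Itgav showed a gap of the same kind in both libraries, with a listed coverage of 43.9 against 57.9 in M and 185.8 against 245.1 in MR, and its log2 ratio over the alternatives was between 2.20 and 2.42. Such a gap was also present for Itgb2, at 523.1 against 699.1 in M and 404.8 against 531.6 in MR. For Itgam the values were 224.9 against 287.9 in M and 141.2 against 178.9 in MR.

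Since TPM is per length, levels of subunit genes can be set side by side within a library. In M, the TPM of Itgb3 was 0.0509 times that of Itgb5, and in MR it was 4.09 times, so that the order of these beta chain genes turned over. With the listed coverage these values were 0.0515 in M and 15.1 in MR. The ratio of Itgb3 to Itgav was 0.161 in M and 0.853 in MR. The ratio of Itgb5 to Itgav was 3.17 in M and 0.209 in MR, and with the listed coverage 4.13 and 0.0745. Together, the TPM of Itgb3 and Itgb5 was 3.33 times that of Itgav in M and 1.06 times in MR. These are ratios of RNA levels, and the pairing of the chains was not measured.

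**Figure D2:**
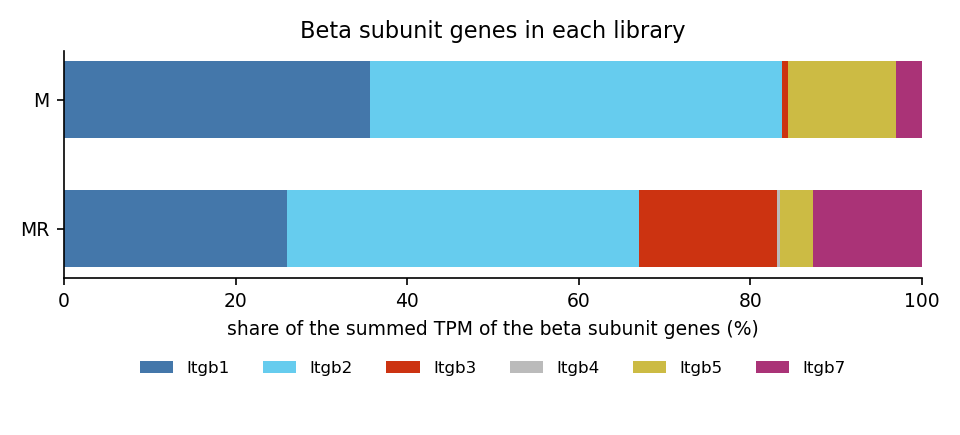
Share of each beta subunit gene in the summed TPM of the beta subunit genes (horizontal axis, percent), 1 bar per library. The share of Itgb3 was 0.642% in M and 16.1% in MR, that of Itgb5 was 12.6% and 3.94%, and Itgb2 and Itgb1 held the largest shares in both.

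The beta chains as a whole are shown in the plot of shares. The 8 beta subunit genes summed to 866.8 TPM in M and 977.9 TPM in MR. Itgb2 made up 48.0% of this sum in M and 41.0% in MR, and Itgb1 made up 35.7% and 26.0%. The share of Itgb5, 3.94% in MR, was 1.23% there with the listed coverage. The share of Itgb7 was 3.03% in M and 12.6% in MR, and that of Itgb4 was 0.309% in MR with no locus in M. Itgb6 and Itgb8 had no locus in either library. In order of TPM, M ran Itgb2, Itgb1, Itgb5, Itgb7 and Itgb3, whereas MR ran Itgb2, Itgb1, Itgb3, Itgb7 and Itgb5.

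Among the β1 chain and its partners, Itgb1 and Itga4 stayed within the threshold and Itga6 was lower in MR. Itgb1 (chr8:128685654-128733200, plus strand), the common beta chain of fibronectin, collagen and laminin receptors, was at 309.5 TPM in M and 254.1 TPM in MR. Its log2 ratio was -0.28 and its ratio was 0.821 (0.790 to 0.853). It was the second most abundant member after Itgb2 in both libraries.

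Itga4 (chr2:79255426-79333123, plus strand) encodes α4, which binds fibronectin and VCAM-1 with β1 or β7. It was at 53.1 TPM in M and 56.4 TPM in MR, with a ratio of 1.06 (1.01 to 1.12) and a log2 ratio of 0.09. The sign was negative under median-of-ratios scaling, at -0.10, so that no direction is given for this gene. The extent of its locus differed between the libraries. In M the locus stopped 5641 bases before the annotated 3′ end and covered 58.7% of the exon bases, and in MR it covered 99.2% and ended within 6 bases of the annotated end. In M a minus-strand locus at chr2:79331694-79368812, given to the neighbouring gene Cerkl, had a TPM of 29.8 and lay over 1430 exon bases of Itga4. MR had no such locus, and Cerkl was at 30.4 TPM in M and 3.33 TPM in MR in all. Whether the libraries keep the strand of the RNA is not stated, and the part of this locus in the level of Itga4 in M was not tested.

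Itga6 (chr2:71745616-71858416, plus strand) encodes the laminin receptor chain α6. It was at 58.4 TPM in M and 27.8 TPM in MR, 2.10-fold lower in MR (1.90 to 2.32), with a log2 ratio of -1.04. The counting interval of the log2 ratio, -1.19 to -0.90, held the threshold, and with the listed coverage the log2 ratio was -0.93, which is not called. The locus began at the same exon in both cultures, 5 bases before the start of the coding transcript Itga6-202 in M and 22 bases before it in MR, which is 41319 and 41302 bases inside the annotated gene.

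The β2 integrin genes of leukocytes were mostly within the threshold. Itgb2 (chr10:77530252-77565708, plus strand) encodes β2, the chain common to the leukocyte integrins, and was the most abundant member in both libraries. It was at 416.2 TPM in M and 401 TPM in MR, with a log2 ratio of -0.05 and a ratio of 0.963 (0.929 to 0.999). Itgam (chr7:128062640-128118491, plus strand) encodes αM of the complement receptor Mac-1, a marker of myeloid cells. It was at 171.4 TPM in M and 135 TPM in MR, with a log2 ratio of -0.34 and a ratio of 0.788 (0.751 to 0.826). In both libraries its locus also covered the gene model Gm49368, so that the value belongs to the shared locus.

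Itgal (chr7:127296260-127335138, plus strand) encodes αL of LFA-1, the ICAM receptor of leukocytes. It was at 33.5 TPM in M and 15.1 TPM in MR, 2.22-fold lower in MR (1.96 to 2.51), with a log2 ratio of -1.10. The interval of the log2 ratio, -1.28 to -0.92, held the threshold, and the log2 ratio lay between -1.28 and -1.06 under the 8 alternatives that change it. T and NK cells also carry LFA-1, and their 4 markers were listed with no locus in either library. Markers of other leukocytes were present. The 4 B cell markers summed to 13.1 TPM in M and 8.50 TPM in MR, and 2 of them, Cd79b and Ms4a1, were lower in MR. The 8 neutrophil markers summed to 1365 TPM in M and 953 TPM in MR. The part of these cells in the level of Itgal was not tested.

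Itgax (chr7:128129547-128150657, plus strand) encodes αX, used as a marker of dendritic cells and of some macrophages. The sum over its loci was 6.66 TPM in M and 10.4 TPM in MR, a log2 ratio of 0.57, which is not called. The counting interval, 0.09 to 1.05, was centred on this sum and does not cover the effect of summing pieces that is described next. In M the gene was broken into 4 loci with TPM values of 1.12, 1.75, 1.81 and 1.98, which together covered 95.4% of the exon bases. In MR there was 1 locus over 99.4% of them. A sum of TPM over pieces of 1 transcript counts the transcript once per piece, and with a mean over the loci weighted by length the level was 1.64 TPM in M and 10.4 TPM in MR, a log2 ratio of 2.11, which is called higher. The log2 ratio was 2.02 when the locus with the most exon bases was used. For Itgax 42 read pairs were estimated in M and 186 in MR. The dendritic cell markers summed to 8.19 TPM in M and 9.86 in MR, and 1 of the 3 that reached a TPM of 1, Zbtb46, was higher in MR. Their part in the level of Itgax was not tested.

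The TPM of Itgal, Itgam and Itgax together was 0.508 times that of Itgb2 in M and 0.400 times in MR. Itgam made up most of this sum in both. The 8 neutrophil markers, a cell type that also carries Mac-1, summed to 1365 TPM in M and 953 TPM in MR, and their part in the values of Itgam and Itgb2 was not tested.

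**Figure D3:**
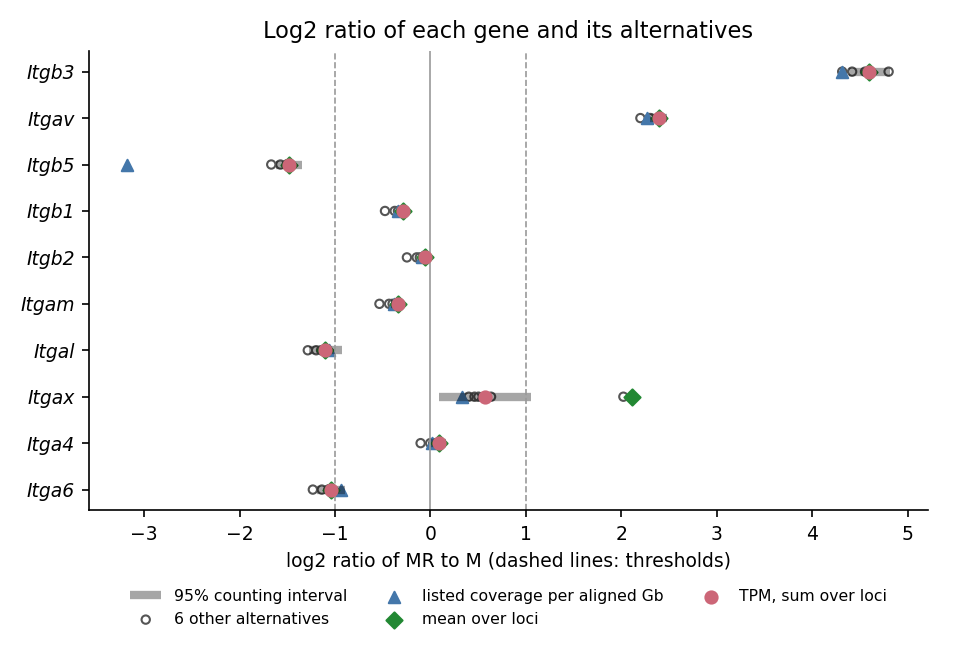
Log2 ratio of MR to M for each member (horizontal axis), with the sum over loci in TPM as a filled circle, the 95% counting interval as a grey bar, the listed coverage as a triangle, the length-weighted mean over loci as a diamond and 6 other alternatives as open circles, and dashed lines at -1 and 1. The triangle of Itgb5 stands at -3.18, apart from its other values, the diamond of Itgax at 2.11 and an open circle at 2.02 stand apart from the rest of that gene, and the points of Itgb3 and Itgav lie beyond 1 in each case.

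The plot of log2 ratios shows which calls depended on the processing. For Itgb3 the log2 ratio over the 8 alternatives lay between 4.31 and 4.80, and for Itgb5 between -3.18 and -1.48. Itgb1 lay between -0.48 and -0.28, Itgb2 between -0.25 and -0.05, and Itgam between -0.53 and -0.34, none of which is called. At the threshold of 1, the calls of Itgb3, Itgav, Itgb5 and Itgal were the same under these 8 alternatives, that of Itga6 was lost with the listed coverage, and Itgax was called with 2 of them. With a log2 threshold of 2, only Itgb3 and Itgav were called. At the threshold of 1 the count of called members was 4 with the listed coverage. Under this setting 3465 of 13449 genes tested were called (2106 higher, 1359 lower). With the largest locus 6 members were called, beside 4478 of 13449 genes tested (2716 higher, 1762 lower). The count was also 6 with the length-weighted mean, under which 33.0% of all genes tested were called (20.1% higher, 12.9% lower).

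**Figure D4:**
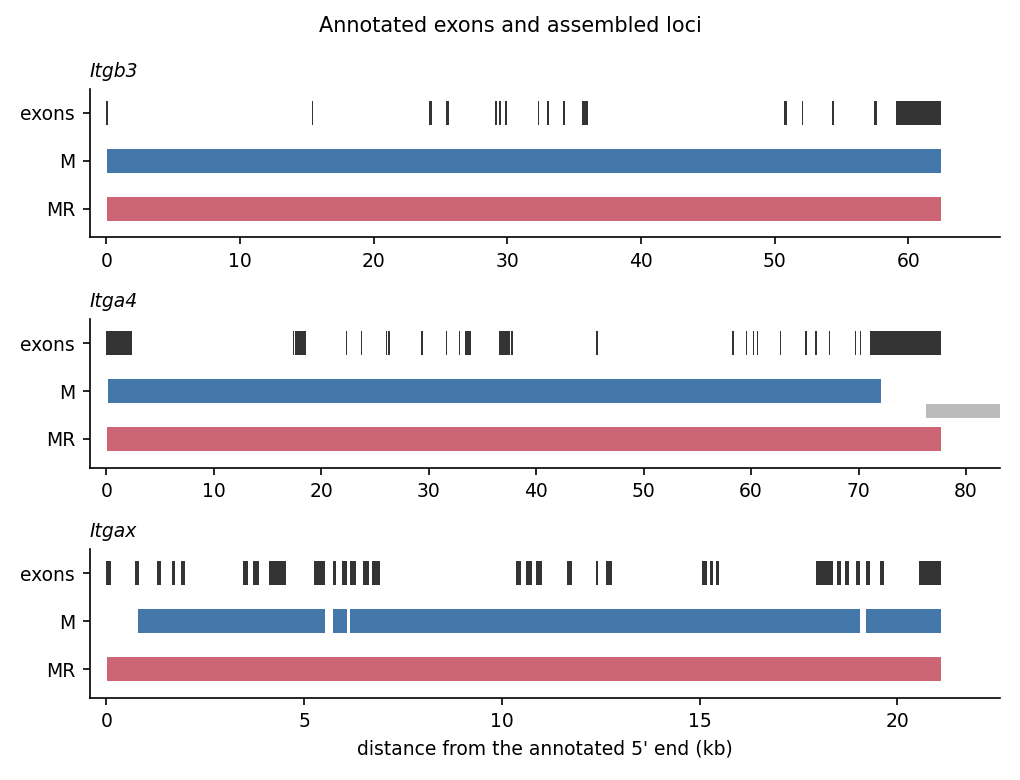
Annotated exons (black), assembled loci in M (blue) and in MR (red) against the distance from the annotated 5′ end of the gene in kb, for Itgb3, Itga4 and Itgax. The narrow grey bar under the Itga4 locus of M is the minus-strand locus given to Cerkl, cut off at the edge of the plot, and Itgax has 4 loci in M and 1 in MR.

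The outer ends of the loci were compared with the annotated ends. The 5′ ends in M and MR were between 1 and 29 bases apart for 8 members, Itgb3, Itgav, Itgb5, Itgb1, Itgb2, Itga4, Itga6 and Itgam. For Itgb3 they lay 42 bases inside the annotated 5′ end in M and 24 bases inside it in MR, and for Itgav 97 and 68 bases. The 5′ ends of Itgal were 247 bases apart, with that of M 141 bases before the annotated end and that of MR 106 bases inside it. Those of Itgax were 777 bases apart, with the first of its 4 loci in M 798 bases inside the annotated end. At the 3′ side, the ends were at the same base for Itgam, between 1 and 42 bases apart for Itgb3, Itgav, Itgb1, Itgb2, Itgal and Itgax, 291 bases apart for Itgb5, 386 for Itga6 and 5647 for Itga4. The tables give outer ends only, and reads per exon were not analysed here.

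The 16 remaining integrin subunit genes had a locus in 12 cases, of which 11 reached a TPM of 1. In MR 5 of these were higher, beside 21.3% of all genes tested, and 1 was lower, beside 13.2%, and their median log2 ratio was 0.89. Itga3, Itga7, Itgb6 and Itgb8 had no locus in either library. Several of these genes were broken into short loci, and with the length-weighted mean 3 were called, all of them higher. Under that mean 20.1% of all genes tested were higher and 12.9% lower.

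Itga2 encodes α2, the collagen receptor chain that pairs with β1. It had no locus in M and was at 25.1 TPM in MR, where its 1 locus covered 84.0% of the exon bases and an estimated 666 read pairs stood behind it. No fold is given against a library with no locus. Itgb7 encodes β7, a partner of α4 and αE, and was at 26.3 TPM in M and 123.5 TPM in MR, higher in MR by 4.70-fold (4.21 to 5.26) with a log2 ratio of 2.19. Its TPM was 0.495 times that of Itga4 in M and 2.19 times in MR.

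Itga5, the fibronectin receptor chain that pairs with β1, was the most abundant of these genes in M. It was at 103.9 TPM in M and 120.8 TPM in MR, with a log2 ratio of 0.22, which is not called. Itga2b encodes αIIb, which pairs with β3 on platelets, and was at 8.83 TPM in M and 5.16 TPM in MR, with a log2 ratio of -0.68. The 5 megakaryocyte and platelet markers summed to 535 TPM in M and 68.7 TPM in MR, of which Pf4 gave 504.6 and 38.4 TPM, and Gp1bb had no locus in MR. Of these 5 markers 3 were called lower in MR, Pf4, Gp1bb and Gp5. Without Pf4 the other 4 markers summed to 30.4 TPM in M and 30.3 TPM in MR. Ppbp gave 22.4 and 27.3 TPM of these sums, Gp9 2.29 and 2.02 TPM, and Gp5 3.21 and 0.956 TPM. The part of megakaryocytes and platelets in the values of Itga2b and Itgb3 was not tested.

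The other 3 genes called higher had few reads or loci in pieces. Itgae, the αE chain that pairs with β7, was at 1.47 TPM in M and 8.59 TPM in MR from an estimated 4 and 29 read pairs, a log2 ratio of 1.96 that was 0.41 with the length-weighted mean. Itga1, a collagen receptor chain, was at 0.908 TPM in M and 5.38 TPM in MR from an estimated 2 and 62 read pairs, and its log2 ratio of 1.74 was 0.40 with the mean. Itgb4, a laminin receptor chain, had no locus in M and was at 3.02 TPM in MR from an estimated 6 read pairs. These calls rest on little sequence. Itga11, another collagen receptor chain, was called lower at 3.22 TPM in M and 0.0176 TPM in MR, a log2 ratio of -2.05 that was -0.86 with the mean.

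The genes within the threshold among the low ones were Itga8, Itga9 and Itga10. Itga8 was at 4.06 TPM in M and 1.86 TPM in MR. Itga9 was at 6.75 TPM in M and 7.27 TPM in MR. Itga10 was at 0.595 TPM in M and 1.96 TPM in MR. Itgad did not reach a TPM of 1 in either library.

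**Figure D5:**
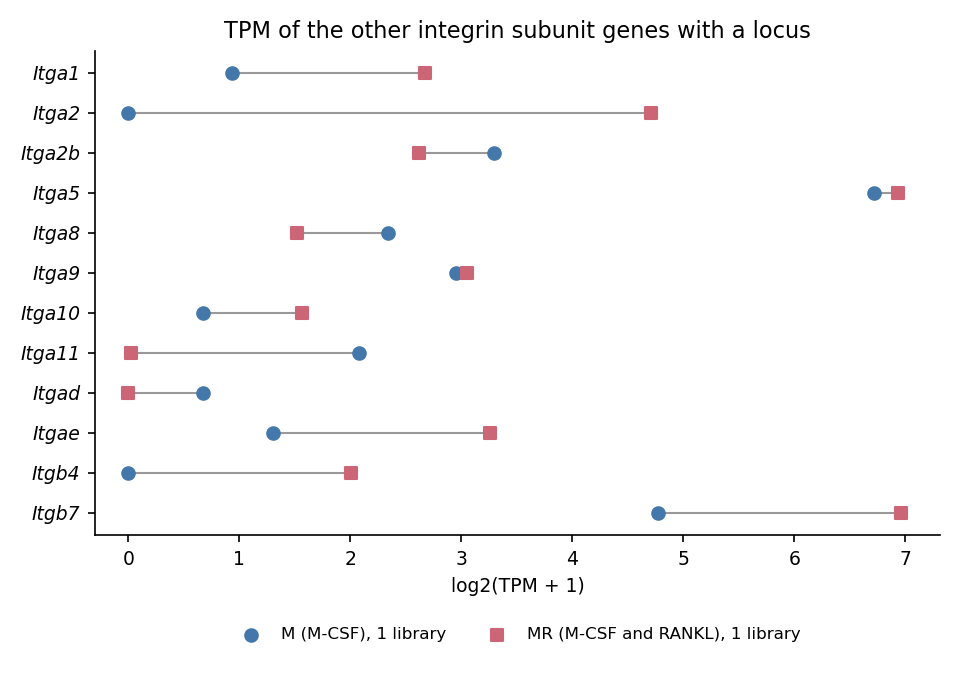
Level of the 12 other integrin subunit genes with a locus, as log2(TPM + 1) on the horizontal axis, with M as a circle and MR as a square, 1 library per group. Itga2, at 0 in M and 25.1 TPM in MR, and Itgb7, at 26.3 and 123.5 TPM, are the 2 genes called with more than 100 estimated read pairs in MR.

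Ligands of the integrins were next examined, from a list of 30 genes of which 21 reached a TPM of 1. In MR 3 were higher (Edil3, Mfge8 and F11r), 2 were lower (Icam2 and Thbs1), beside 21.3% higher and 13.2% lower of all genes tested, and the median log2 ratio was 0.11 beside 0.21. Edil3, a secreted protein that binds αvβ3, was at 0.595 TPM in M and 33.9 TPM in MR, a log2 ratio of 4.45 that was 3.54 with the listed coverage. Mfge8, a secreted ligand of αvβ3 and αvβ5 that bridges to dying cells, was at 24.5 TPM in M and 115.7 TPM in MR, a log2 ratio of 2.19. Both are ligands of αv integrins, whereas Spp1, the gene of the αvβ3 ligand osteopontin, had a log2 ratio of -0.60. Icam2, a ligand of LFA-1, was at 26.0 TPM in M and 3.85 TPM in MR, a log2 ratio of -2.48 that was -0.28 with the listed coverage, which is not called. Thbs1, a matrix protein bound by several integrins, was at 76.6 TPM in M and 20.1 TPM in MR, a log2 ratio of -1.88. Spp1, which encodes osteopontin, was the most abundant ligand gene and was not called, at 2076 TPM in M and 1369 TPM in MR. Vtn, Ibsp, Jam3, Madcam1 and the fibrinogen genes Fga, Fgb and Fgg had no locus in either library.

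Genes that act on integrin activation from inside the cell, for or against it, were a list of 17, of which 14 reached a TPM of 1. In MR 3 were higher (Tln2, Parvb and Parva) and 1 was lower (Itgb1bp1), 4 of 14 in all beside 34.5% of all genes tested, with a median log2 ratio of -0.04. The talin and kindlin of blood cells were not called, although the log2 ratio of Tln1 was 1.02 with the listed coverage. Tln1, which binds the tail of the beta chain, was at 182.2 TPM in M and 288 TPM in MR, and Fermt3, its kindlin partner, was at 290.6 and 284.4 TPM. Tln2, a second talin, was at 0.595 TPM in M and 12.7 TPM in MR, where it was the sum over 10 loci against 1 in M. The call of Tln2 was lost with the length-weighted mean, at a log2 ratio of 0.52, and with the largest locus, at 0.40. That of Parva, at 1.51 TPM in MR with no locus in M, was lost in FPKM and with the listed coverage. Parvb, which links integrin-linked kinase to actin, was at 35.4 TPM in M and 121.3 TPM in MR, a log2 ratio of 1.75. Its partner in the complex, Lims1, was at 56.6 TPM in M and 112.7 TPM in MR, and its log2 ratio of 0.98 did not reach the threshold. Itgb1bp1, which competes with talin for the β1 tail, was at 45.0 TPM in M and 10.6 TPM in MR, a log2 ratio of -1.98.

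All 13 genes listed as downstream of integrins reached a TPM of 1, and 5 were higher in MR and 2 were lower, beside 21.3% and 13.2% of all genes tested, with a median log2 ratio of 0.11. Src, the kinase that acts below αvβ3 in osteoclasts, was at 3.68 TPM in M and 288.7 TPM in MR, a log2 ratio of 5.95. The Src locus of MR was shared with the neighbouring gene Manbal, which had a locus of its own at 44.3 TPM in M. The value in MR thus belongs to both genes, and the ratio sets it against Src alone in M. Src is counted among the 5 higher genes, whereas the share over all genes tested leaves out genes with a shared locus. With the listed coverage the log2 ratio of Src was 2.97. Vcl, which encodes the adhesion protein vinculin, was at 8.02 TPM in M and 59.7 TPM in MR, a log2 ratio of 2.75. The remaining genes called higher also encode parts of adhesion sites or their switches. Bcar1, the adaptor p130Cas, was at 1.79 TPM in M and 11.2 TPM in MR, a log2 ratio of 2.12. Rac2, the blood cell Rac, was at 170.5 TPM in M and 600.6 TPM in MR, a log2 ratio of 1.81, and Pxn, which encodes paxillin, was at 80.2 and 272 TPM, a log2 ratio of 1.75 that was 1.18 with the listed coverage. The genes called lower in MR encode the kinases FAK and Pyk2. Ptk2, the gene of FAK, was at 14.5 TPM in M and 4.34 TPM in MR, a log2 ratio of -1.54, and Ptk2b, which encodes Pyk2, was at 143.5 and 64.3 TPM, a log2 ratio of -1.15. The direction for Ptk2b turned with the listed coverage, at a log2 ratio of 0.50, so that this call rests on the TPM.

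Proteins that sit beside integrins in the membrane were a list of 8, of which 7 had a value in both libraries. In MR 2 were higher (Cd9 and Cd82) and 3 were lower (Cd81, Cd47 and Slc3a2), beside 21.3% and 13.2% of all genes tested, with a median log2 ratio of -0.82. For Slc3a2, which encodes the heavy chain of amino acid transporters, the log2 ratio was -1.14 in TPM and 1.48 with the listed coverage, so that its direction depends on the column. The tetraspanin genes, whose products gather integrins into membrane domains, went both ways. Cd9 was at 114.4 TPM in M and 347.4 TPM in MR, a log2 ratio of 1.59. Cd82 was at 55.3 TPM in M and 136.1 TPM in MR, a log2 ratio of 1.28. Cd81 was at 108.6 TPM in M and 20.5 TPM in MR, a log2 ratio of -2.35. Cd47, which associates with αvβ3 and carries the signal that blocks phagocytosis, was at 176.6 TPM in M and 79.1 TPM in MR, a log2 ratio of -1.15. Cd151 lay inside the locus of Cracr2b in M and has no value there.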

How the data were processed

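RNA of wild-type bone marrow cells was analysed in 2 libraries, 1 of M and 1 of MR. Paired reads (150 bases) were aligned by the authors to mm10 with HISAT2, and the submitters' processing notes name Trim Galore, FastQC, SAMtools and StringTie, whose versions are not given in the sources used here. For each entry the deposited tables list the coverage (mean read depth, unscaled), the FPKM and the TPM. The deposited TPM column is scaled over the assembled loci alone, and entries with gene names, which carry positions of another build, come in addition and were not used.

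Assembled loci were assigned to GENCODE vM21 genes by exon bases: the gene with most bases inside the locus took it, if there were 50 or more and the strands did not conflict. Where a second coding gene had 50% or more of its exon bases inside, the locus counted as shared. In M 15665 of 19422 loci, with 95.4% of the TPM, and in MR 16523 of 19922, with 96.9%, were given to genes. Of the 14870 genes with a locus, 14416 had their own, 361 a shared one and 93 lay inside another. TPM was summed per gene. The threshold was applied to genes that reached a TPM of 1 in M or MR, with a pseudocount of 1. Read pairs were estimated from FPKM, the longest coding transcript, 300 bases per pair and the aligned Gb, which was itself read from the commonest quotient of coverage and FPKM (FPKM over 5). The assignment was tested on simulated loci that each spanned nearly the whole annotated extent of a gene. Loci broken into pieces, merged over neighbours or cut off were not simulated, so that the test does not cover them.

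The members and lists were chosen with earlier results of these data known. Named genes are the members, the other integrin subunit genes with a TPM of at least 1, and from each list the 4 genes with the largest absolute log2 ratio among those reaching a TPM of 10. F11r, Spp1, Tln1, Fermt3, Parva, Pxn, Ptk2, Ptk2b and Slc3a2 were named after their values were seen, to complete a count of called genes or to give a level. The alternatives were a pseudocount of 0.1, FPKM, coverage per aligned Gb, median-of-ratios scaling (11854 genes), leaving out mitochondrial and the top 20 genes before rescaling TPM, only the locus with the most exon bases, only loci with a strand, other filters and a threshold of 2. The length-weighted mean was a later addition, made once the data had been seen. The work used pandas 2.3.3 and numpy 2.4.6 in Python 3.11.15, scipy 1.17.1 for the intervals of shares and, for plots, matplotlib 3.10.9.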

Additional observations from a re-analysis of the deposited data

Results flagged for a closer look

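Within Itgav, on its strand and outside its annotated exons, short assembled loci appeared that enter no comparison. They summed to 0.722 TPM in M and 2.55 TPM in MR, and were noted as a signal outside the main measurement that was above the level in the control library. The locus at chr2:83797657-83800149 was at 0.722 TPM in M and 2.24 TPM in MR, and a locus at chr2:83786037-83788529 was at 0.308 TPM in MR. Both have the outer ends of an entry with a gene name, and the gene that gave their reads was not tested. Of the 46 outer ends of the loci given to the members, 0 were at such an end.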

How the results depend on the processing

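No paired analysis was possible because each condition has 1 library, and for the same reason no replicate could be left out. Of the 80 log2 ratios of members under alternatives, 58 stayed inside the counting interval of the gene, 22 lay outside it and 0 reversed a called direction. Over all genes the number called was 4639 of 13449 tested. Among genes reaching a TPM of 10 it was 2580 of 8673 (1599 higher, 981 lower). With a log2 threshold of 2 it was 1476 of 13449 (956 higher, 520 lower). With that threshold the called members were 2, the genes acting on activation 1, the downstream genes 3, the ligands 3 and the surface partners 1. Of the other integrin subunit genes only Itga2, Itga5 and Itgb7 reached a TPM of 10, and 2 of these were called. With the length-weighted mean 3 of 11 were called, beside 33.0% of all genes tested. The length-weighted mean was chosen after the data were seen. With the listed coverage the share of Itgb3 in MR was 18.6%, and that of Itgb5 was 14.2% in M and 1.23% in MR. The listed coverage of Itgb2, which was below that of its FPKM in both libraries, enters the sum behind these shares. Higher genes were 61.6% of those called, 53.0% under median-of-ratios scaling, which moved the median of all genes from 0.21 to 0.03, and 57.5% when TPM was rescaled after mitochondrial and the top genes were left out. Among list genes, the listed coverage turned the direction of Ptk2b (0.50) and Slc3a2 (1.48), and the cause was not tested. Depth limits Itgax in M and the low integrin genes most.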

Other observations

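Itgb2l, a gene related to Itgb2 that was looked at after the values of the listed genes were seen, was at 6.01 TPM in M and 2.74 TPM in MR, from an estimated 62 and 25 read pairs, with a log2 ratio of -0.91 that is not called. Within Itgb2, assembled loci without any of its exon bases summed to 8.04 TPM in M and 6.43 TPM in MR. The sums include a minus-strand locus, opposite to Itgb2, at chr10:77553730-77554252, with 3.52 TPM in M and 2.66 TPM in MR. All of these loci have the outer ends of an entry with a gene name, and the gene that gave their reads was not tested.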
